A study of Mus musculus with 17 samples.

Results

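Aldehyde metabolism was followed through the transcripts of 9 mouse enzymes, Aldh2, Adh5, Aldh1a1, Aldh1b1, Aldh3a2, Aldh7a1, Aldh9a1, Aldh18a1 and Esd, in blasts of Spi1 transgenic mice. They were grouped as aldehyde detoxification enzymes, although ALDH18A1 makes a semialdehyde and does not remove one, and sums and shares over the 9 include it. The members were chosen by gene name, and all 9 were found among the 28600 genes listed in either of the main count tables. After a filter on low counts, 9 of them could be tested in model 1 and 8 in model 2, where Aldh1b1 was too low. The RNA-seq data came from erythroid blasts of 17 mice, 1 library per mouse, grown in culture with erythropoietin (EPO) and diluted 2 days before the RNA was taken. By their labels all the mice carried the Spi1 transgene, made to force expression of the transcription factor SPI1/PU.1.

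In model 1, on a mixed DBA2JxFVB/N background, the Fanca gene was either intact (TgSpi1FA+/+) or deleted on both alleles (TgSpi1FA-/-). Its groups were 4 preleukaemic TgSpi1FA+/+ mice (preleukemic_445, preleukemic_479, preleukemic_451 and preleukemic_138), 3 preleukaemic TgSpi1FA-/- mice (preleukemic_77, preleukemic_224 and preleukemic_40) and 3 leukaemic TgSpi1FA-/- mice (leukemic_26, leukemic_28 and leukemic_39). The study reported a Kit mutation in the mouse of leukemic_26 and an Nras mutation in those of leukemic_28 and leukemic_39. It also reported a Jak2 mutation in the mice of preleukemic_445 and preleukemic_451. Kit or Nras mutations of low allele frequency were reported in those of preleukemic_445, preleukemic_479 and preleukemic_138. In model 2, on the DBA2J background, Fanca was intact in the 4 preleukaemic (preleukemic_633, preleukemic_663, preleukemic_812 and preleukemic_837) and the 3 leukaemic mice (leukemic_601, leukemic_606 and leukemic_921), and the leukaemic cells had arisen after serial blood transfusion. The study describes the leukaemic cells of model 2 as carrying activating Kit mutations. Preleukaemic blasts need EPO and form no tumour, whereas leukaemic blasts grow without it and do. For model 1 the input was 400 ng of RNA, fragmented for 8 min, and for model 2 it was 300 ng, fragmented for 2 min. The values of a group are always given in the order in which its mice are named here. Ages are not given in the sources used here.

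Aldehydes such as formaldehyde, acetaldehyde and the products of lipid peroxidation arise in every cell and crosslink DNA and protein. The Fanconi anaemia proteins, of which FANCA is a core subunit, act in the repair of DNA interstrand crosslinks, and mice that lack both this pathway and an aldehyde dehydrogenase are known to lose blood stem cells. Formaldehyde is bound to glutathione, oxidised by ADH5 and released as formate by ESD, while ALDH2 in mitochondria oxidises acetaldehyde and other small aldehydes.

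Total counts ranged from 29964576 to 40514205 per library, and values are given as CPM, the counts of a gene scaled to a common library size with TMM factors. Fanca had between 0.615 and 2.30 CPM in the 6 TgSpi1FA-/- libraries and between 28.1 and 83.5 CPM in the 11 others, so the Fanca genotype labels were borne out. Spi1 was at 3.88 CPM in leukemic_39, 220 in leukemic_28 and 630 in leukemic_26, against 467 to 1061 CPM in the other libraries of model 1. The library labelled leukemic_39 thus went against forced expression of Spi1, and calls that rest on it are also given without it. The libraries preleukemic_445 and preleukemic_479 were nearly alike in the model 1 table, since the chi-square between their counts was 8.53 times its degrees of freedom and at least 114 times for every other pair within a group of that table. They were kept apart in the main fit and in the means and SDs of 4 preleukaemic TgSpi1FA+/+ libraries. With their counts summed no member was called by edgeR against that group, with an adjusted p of at least 0.0703 for leukaemic and at least 0.921 for preleukaemic TgSpi1FA-/- cells. In a second deposited table of 7 of these mice the same pair gave 350, against 393 to 742 for the other pairs. The preleukaemic TgSpi1FA-/- mice were grouped by their titles, although the column names call them leukaemic.

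The erythroid identity of the blasts was checked on 14 markers, of which 13 had a mean of at least 1 CPM in each group. Their summed level was 6137 to 9552 CPM in preleukaemic TgSpi1FA+/+, 6859 to 7079 CPM in preleukaemic TgSpi1FA-/- and 2634 to 5158 CPM in leukaemic TgSpi1FA-/- libraries. In model 2 it was 6088 to 11027 CPM in preleukaemic and 3711 to 6335 CPM in leukaemic libraries. Of the other lists, 7 neutrophil, 5 B cell and 5 T cell markers summed to at most 0.555, 0.521 and 0.301 CPM in any library, and 8 macrophage and monocyte markers to at most 10.0 CPM, with Adgre1, C1qa, C1qb and Marco at no more than 3 counts in any library of any group. Megakaryocyte markers (6 genes) summed to 45.7 to 60.2 CPM in preleukaemic and 174 to 276 CPM in leukaemic TgSpi1FA-/- libraries, and to 60.9 to 205 CPM in preleukaemic TgSpi1FA+/+ libraries, which overlapped the leukaemic range. In model 2 they summed to 32.0 to 90.5 CPM in preleukaemic and 11.2 to 117 CPM in leukaemic libraries. Mast cell markers (7 genes) summed to 3.73 to 59.2 CPM in preleukaemic and 103 to 156 CPM in leukaemic libraries of model 2, against at most 92.9 CPM in model 1. The part of these shifts in the changes of the enzymes was not tested, and in such bulk RNA fewer cells of a type and less RNA per cell cannot be told apart. Stromal and endothelial markers (8 genes) summed to at most 274 CPM in preleukaemic TgSpi1FA-/- libraries and at most 0.128 CPM in the leukaemic libraries of model 2. In that preleukaemic group only 1 of the 8 had a mean of at least 1 CPM. Cdh5, Col3a1, Pdgfra, Pdgfrb and Pecam1 had no more than 3 counts in any of its libraries. The sum thus rested mainly on 1 gene and was not read as a sign of such cells. Stem and progenitor markers (6 genes) summed to 42.7 to 811 CPM, with ranges that overlapped between both stages in each model. Of these 6 genes, 2 had a mean of at least 1 CPM in leukaemic TgSpi1FA-/- cells and 1 in every other group. Flt3 and Mecom had no more than 3 counts in any library, while Cd34, Hlf, Kit and Procr had more in at least 1 library. The sum thus rested mainly on the 1 or 2 genes above 1 CPM in each group, and it does not show a stem cell signal.

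The start regions of 3 of the genes are shown because their transcripts had the lowest adjusted p (Aldh3a2) or the largest fitted changes (Aldh1b1 and Aldh1a1) of the 9 in leukaemic against preleukaemic TgSpi1FA-/- cells, a choice made after their values were seen. Entries of the RefSeq promoter table, in GRCm38.p6, were used for 7 of the 9 members. Aldh2 and Aldh7a1 were not among them, and this count does not show whether the table held them. Each line gives the 250 bases before the annotated start, 5′ to 3′ on the strand of the gene, at chr11:61267187-61267436 on the minus strand for Aldh3a2, chr19:20601718-20601967 on the plus strand for the downstream of 2 Aldh1a1 starts, and chr4:45798772-45799021 on the plus strand for Aldh1b1. Capitals mark every match, on either strand, to 7 short motifs.
Aldh3a2: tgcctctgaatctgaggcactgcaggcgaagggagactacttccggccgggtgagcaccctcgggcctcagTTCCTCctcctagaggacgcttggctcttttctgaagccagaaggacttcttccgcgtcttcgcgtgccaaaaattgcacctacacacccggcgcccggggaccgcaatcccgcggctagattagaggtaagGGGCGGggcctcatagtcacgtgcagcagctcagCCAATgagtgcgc
Aldh1a1: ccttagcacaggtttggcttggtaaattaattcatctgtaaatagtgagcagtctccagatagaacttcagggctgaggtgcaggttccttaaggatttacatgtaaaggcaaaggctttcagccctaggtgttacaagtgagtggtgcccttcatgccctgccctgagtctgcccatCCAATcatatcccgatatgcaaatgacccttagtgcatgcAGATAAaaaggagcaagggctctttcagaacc
Aldh1b1: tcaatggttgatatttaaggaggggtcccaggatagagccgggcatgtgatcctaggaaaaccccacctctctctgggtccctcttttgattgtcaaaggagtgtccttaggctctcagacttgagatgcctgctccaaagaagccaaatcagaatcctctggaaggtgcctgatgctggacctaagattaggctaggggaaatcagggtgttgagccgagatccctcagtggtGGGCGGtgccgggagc

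The Aldh3a2 region held a PU.1 core (GAGGAA, read here as TTCCTC on the other strand) 179 bases before the start, a GC box (GGGCGG) and a CCAAT box. Those motifs are in 23.3%, 32.7% and 33.8% of the 32851 RefSeq promoters over the same 250 bases. The Aldh1a1 region held a GATA motif (AGATAA), present in 9.99% of all promoters, 32 bases before the start, and a CCAAT box 72 bases before it. In the Aldh1b1 region a single GC box was found 16 bases before the start. Matches to the CACCC box (CCACCC, in 28.1% of all promoters), the TATA box (TATAAA, 12.4%) and the antioxidant response element (TGACNNNGC, 10.2%) were not in these 3 windows. Such matches describe letters and not bound sites.

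Per length, the levels of the 9 transcripts spanned a wide range. As CPM per kilobase of the union of exons (RPKM), Aldh18a1 was first in both preleukaemic groups of model 1, at 96.0 ± 11.8 (SD, n = 4) and 98.2 ± 15.5 (SD, n = 3). Aldh2, Esd and Aldh9a1 followed at 80.0, 62.3 and 60.3 RPKM in TgSpi1FA+/+ preleukaemic cells, and the library ranges of neighbours in this order overlapped. Adh5 was next at 30.9 ± 4.01 RPKM (SD, n = 4), with a range apart from that of Aldh9a1 above it and of Aldh1a1 below it. Aldh1a1 at 9.87 and Aldh3a2 at 7.99 RPKM overlapped, while Aldh7a1 at 1.35 and Aldh1b1 at 0.115 RPKM were each apart from their neighbours.

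The order differed in leukaemic cells. In leukaemic TgSpi1FA-/- cells Aldh2 had rank 5 with 10.3% of the summed RPKM of the 9 genes, against rank 2 with 22.4% in the preleukaemic cells of that genotype, and the library ranges (7.31% to 13.5% and 20.4% to 23.8%) did not overlap. The share of Aldh9a1 was 16.6% in the preleukaemic and 26.3% in the leukaemic TgSpi1FA-/- cells, although its own CPM was not called. In leukaemic cells of model 2 Esd was first with 36.7%, and the range of its RPKM was apart from that of Aldh2, which had rank 2. The sum itself was 364 ± 31.4 RPKM (SD, n = 3) in preleukaemic and 268 ± 34.2 RPKM (SD, n = 3) in leukaemic TgSpi1FA-/- cells, and 347 ± 52.3 (SD, n = 4) and 281 ± 28.3 RPKM (SD, n = 3) in model 2. With the longest annotated transcript as the length, Esd passed Aldh18a1 to rank 1 in preleukaemic cells of model 2, Adh5 moved from rank 5 to rank 3 in leukaemic cells of model 2, and Aldh1a1 passed Adh5 to rank 5 in preleukaemic TgSpi1FA-/- cells.

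**Figure D1:**
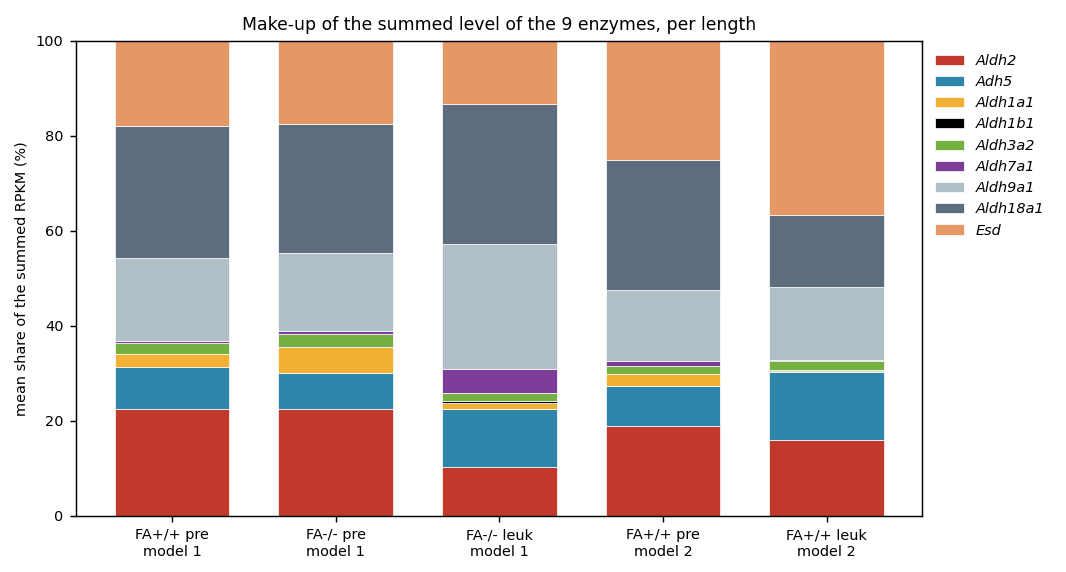
Stacked bars give the mean share (%) of each of the 9 enzymes in their summed RPKM for the 5 groups, with preleukaemic (pre) and leukaemic (leuk) cells of both models. The Aldh2 block shrinks from 22.4% to 10.3% between the TgSpi1FA-/- groups of model 1, and Esd takes 36.7% in leukaemic cells of model 2.

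The first comparison was that of leukaemic with preleukaemic TgSpi1FA-/- cells, which addresses what differs at the leukaemic step when FANCA is absent. A call needed a 1.5-fold change or more, either way, and a p below 0.05 after Benjamini-Hochberg adjustment of edgeR's quasi-likelihood test over all 13393 genes. Aldh2 and Aldh3a2 fell, and none of the 9 enzymes was called higher. These 2 calls of 9 stand beside 13.3% of all genes called in this comparison, with 6.82% called higher and 6.49% called lower. Without leukemic_39, edgeR called 0 members and 711 genes. DESeq2, run as an alternative, called 5 of the 9 (Aldh2, Aldh3a2, Aldh1a1, Aldh1b1 and Aldh7a1), beside 3099 of 26029 genes (11.9%). All shares given for DESeq2 count genes without the low-count filter, so they cannot be set against the edgeR shares of filtered genes. By edgeR 6 members had an unadjusted p under 0.05, beside 32.4% of the 13393 genes. The median log2 fold change was −0.30 over the 9 members and −0.00 over all genes, while the median size of the change was 1.17 and 0.51. Libraries of the groups did not overlap for 5 members, 1 higher (Aldh1b1) and 4 lower (Aldh2, Aldh1a1, Aldh3a2 and Esd), beside 38.7% of all genes (19.4% higher and 19.3% lower).

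In the other comparisons few members passed. No member was called between preleukaemic TgSpi1FA-/- and TgSpi1FA+/+ cells, where 1 gene in all (0.00747%) was called by edgeR and 1159 (8.65%) had an unadjusted p under 0.05. Fanca itself, at −5.26 ± 0.65 (log2, SE), was not called there (adjusted p = 0.0759, edgeR). Calls were thus hard to reach in this comparison, and their lack does not show that the members were unchanged. DESeq2 called 256 of 26029 unfiltered genes there (0.984%) and no member. No member had groups that did not overlap, beside 8.53% of all genes (4.26% higher and 4.27% lower). Between leukaemic TgSpi1FA-/- and preleukaemic TgSpi1FA+/+ cells 1 member (Aldh2) was called lower, beside 7.01% of all genes (3.55% higher and 3.46% lower), and 3 did not overlap (Aldh1b1 higher, Aldh2 and Aldh3a2 lower), beside 25.7% (12.8% higher and 12.9% lower). DESeq2 called 3 members there (Aldh2, Aldh3a2 and Aldh7a1), beside 8.62% of 26029 unfiltered genes. By edgeR 5 had an unadjusted p under 0.05, beside 27.2% of filtered genes. These 3 comparisons share libraries. Between leukaemic and preleukaemic cells of model 2, edgeR called 0 of 12970 genes and thus 0% as background, and 2587 genes (19.9%) had an unadjusted p under 0.05, among them 3 members (Aldh1a1, Aldh7a1 and Aldh18a1). In that comparison DESeq2 called 470 of 24659 unfiltered genes (1.91%), among them Aldh1a1. In model 2 the groups did not overlap for 3 of the 9 members (Adh5 higher, Aldh1a1 and Aldh18a1 lower), beside 20.1% of all genes (9.65% higher and 10.4% lower). The difference of the leukaemic changes between the models, tested in 1 fit of all 17 libraries, was called for no member by edgeR, beside 4.61% of 14597 genes (2.76% higher and 1.85% lower), while 4 members had an unadjusted p under 0.05, beside 25.8%, and DESeq2 called 2 (Aldh1b1 and Aldh7a1), beside 9.22% of 22088 unfiltered genes. Strain, FANCA status, protocol, the mutations carried and the route to leukaemia cannot be told apart in it.

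**Figure D2:**
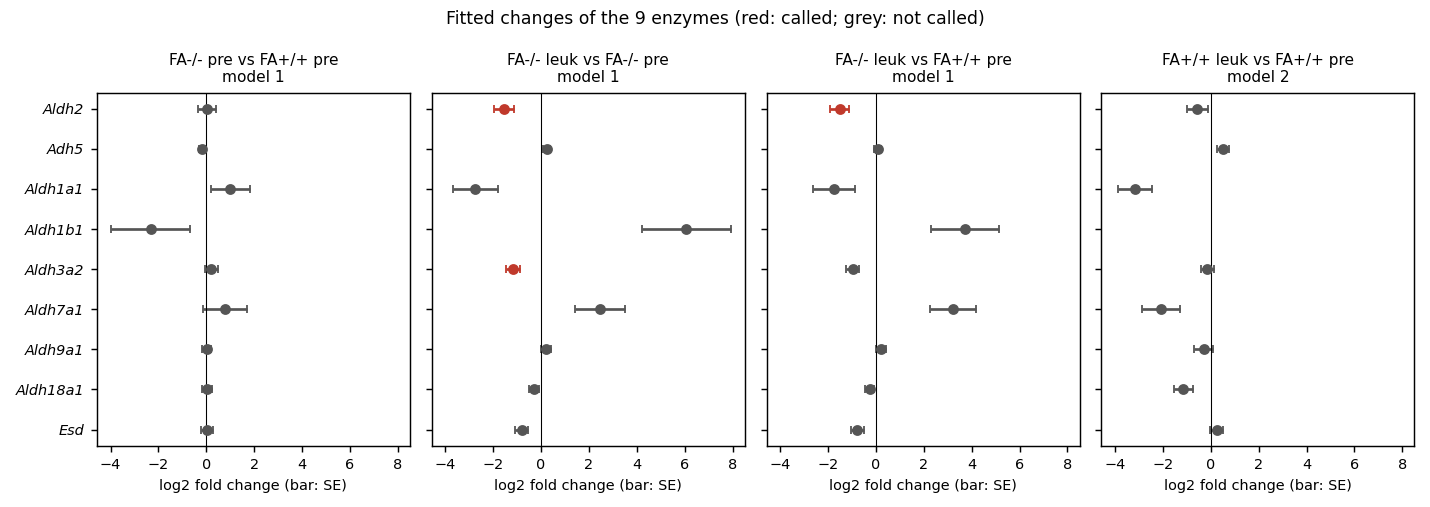
Points give the fitted log2 fold change of each enzyme and bars its standard error in the 4 comparisons between groups, with called genes in red. Aldh2 (−1.55) and Aldh3a2 (−1.17) are red in leukaemic against preleukaemic TgSpi1FA-/- cells, all points for preleukaemic TgSpi1FA-/- against TgSpi1FA+/+ cells are grey, and Aldh1b1 has no point in model 2.

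ADH5, the glutathione-dependent formaldehyde dehydrogenase, had a transcript whose highest library was at most 1.34 times its lowest in each group of model 1. Adh5 (ENSMUSG00000028138, chromosome 3, 138443093 to 138455499, plus strand, GRCm38) had 183, 182, 137 and 167 CPM in the preleukaemic TgSpi1FA+/+ mice. It had 167, 135 and 144 CPM in preleukaemic and 194, 156 and 175 CPM in leukaemic TgSpi1FA-/- mice. The leukaemic and preleukaemic libraries overlapped, and the log2 fold change between these TgSpi1FA-/- groups was 0.23 ± 0.15 (SE), with an interval of 2 SE from −0.06 to 0.53. By edgeR its adjusted p was 0.307 there and 0.779 between the preleukaemic genotypes.

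In model 2 Adh5 had 167, 149, 172 and 124 CPM in the preleukaemic mice, and 174, 308 and 175 CPM in the leukaemic mice. The leukaemic libraries were all above the preleukaemic ones, leukemic_601 and leukemic_921 by a small margin, and leukemic_606 was far above. The log2 fold change was 0.52 ± 0.25 (SE), with an adjusted p of 0.294 (edgeR) and an exact permutation p of 0.0571, the smallest that 3 against 4 libraries allow. Without leukemic_606 it was 0.19. Neighbouring genes were looked at after the values were seen. The other genes within 10 Mb of Adh5 had a median of 0.65 above their mean over the model (log2) in leukemic_606, and those of chromosome 3 as a whole 0.60. Adh5 itself stood 0.82 above its mean there. The part of this shift of the whole chromosome in the level of Adh5 was not tested.

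ESD, the esterase that frees formate and glutathione from the product of ADH5, had a transcript that was not called in either model. Esd (ENSMUSG00000021996, chromosome 14) had 242, 253, 135 and 208 CPM in preleukaemic TgSpi1FA+/+ mice and 262, 184 and 197 CPM in preleukaemic TgSpi1FA-/- mice. In the leukaemic TgSpi1FA-/- mice it had 152, 130 and 85.1 CPM. All 3 leukaemic libraries lay below the preleukaemic TgSpi1FA-/- libraries, but the log2 fold change of −0.81 ± 0.28 (SE) was not called (adjusted p = 0.0815, edgeR). In preleukemic_77, the highest of them, genes within 10 Mb of Esd had a median 0.45 above their model mean (log2), and Esd stood 0.58 above its own. In model 2 Esd had 268, 197, 429 and 257 CPM in preleukaemic and 370, 336 and 324 CPM in leukaemic mice, which overlapped through preleukemic_812. The log2 fold change was 0.25 ± 0.27 (SE, adjusted p = 0.629, edgeR). The leukaemic change differed between the models by −1.07 ± 0.40 (SE, log2), which was not called (adjusted p = 0.110, edgeR). It passed without preleukemic_812, at −1.35 with an adjusted p of 0.0341.

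ALDH2 is the main mitochondrial enzyme for acetaldehyde and takes formaldehyde as well. Aldh2 (ENSMUSG00000029455, chromosome 5, 121566027 to 121593824, minus strand) had 442, 344 and 474 CPM in the preleukaemic TgSpi1FA-/- mice. It had 160, 181 and 88.8 CPM in the leukaemic mice. All 3 leukaemic libraries lay below the lowest preleukaemic one of this genotype, and leukemic_39 was the lowest of all 17. Aldh2 fell by 1.55 ± 0.41 on the log2 scale (SE, adjusted p = 0.0381, edgeR), a fold of 2.93 from preleukaemic to leukaemic. The exact permutation p was 0.1, the smallest that 3 against 3 libraries allow.

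The call on Aldh2 was close to its threshold. With any single library of these groups left out, the log2 change stayed between −1.73 and −1.28 and the adjusted p rose to between 0.0547 and 0.105, with −1.28 and 0.105 without leukemic_39 (edgeR). The preleukaemic TgSpi1FA+/+ mice had 259, 254, 438 and 689 CPM, a 2.72-fold range with the nearly alike pair at its low end. Against them the leukaemic TgSpi1FA-/- cells were lower by 1.52 ± 0.39 (log2, SE, adjusted p = 0.0492, edgeR), and all 3 leukaemic libraries lay below. In edgeR's test this call was lost with the pair summed (−1.69, adjusted p = 0.0703) and in the second count table (−1.35, adjusted p = 0.157). It was also lost without any single one of these 7 libraries other than preleukemic_138 (adjusted p of 0.0584 to 0.146). Between the preleukaemic genotypes the log2 change was 0.04 ± 0.38 (SE, adjusted p = 0.988, edgeR), with an interval of 2 SE from −0.72 to 0.79, and −0.14 with the pair summed.

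In model 2 Aldh2 had 146, 412, 263 and 551 CPM in preleukaemic mice and 212, 315 and 170 CPM in the leukaemic mice. The preleukaemic libraries spanned 3.77-fold and enclosed the leukaemic ones. The log2 fold change was −0.56 ± 0.45 (SE, adjusted p = 0.519, edgeR), and its difference from that of model 1 was −0.999 ± 0.63 (SE, adjusted p = 0.337, edgeR). A gene model of the opposite strand, Gm42879, shares 130 bp of exon with Aldh2, and the strand setting of the counting is not given in the sources used here.

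ALDH3A2, the fatty aldehyde dehydrogenase, oxidises long-chain aldehydes in the endoplasmic reticulum and peroxisomes. Aldh3a2 (ENSMUSG00000010025, chromosome 11, 61223417 to 61267464, minus strand) had 35.2, 54.5 and 65.3 CPM in preleukaemic TgSpi1FA-/- mice and 31.8, 19.1 and 17.9 CPM in the leukaemic TgSpi1FA-/- mice. All leukaemic libraries lay below all preleukaemic ones of this genotype, with leukemic_26 close under preleukemic_77. Aldh3a2 fell by 1.17 ± 0.29 on the log2 scale (SE, adjusted p = 0.0310, edgeR). The call was lost without preleukemic_224, preleukemic_40, leukemic_28 or leukemic_39 (adjusted p of 0.0836 to 0.113) and with only both groups in the fit (0.0851), and it was kept without preleukemic_77 or leukemic_26.

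In preleukaemic TgSpi1FA+/+ mice Aldh3a2 had 41.3, 38.7, 52.1 and 47.5 CPM, all above the leukaemic TgSpi1FA-/- libraries. That difference, −0.97 ± 0.27 (log2, SE), was not called by edgeR (adjusted p = 0.0614) and was called by DESeq2 (0.0206). By edgeR it was −1.02 with the alike pair summed (adjusted p = 0.115), −0.80 without leukemic_39 (0.198) and −1.28 without leukemic_26 (0.0210), where it was called. The second count table gave −0.40 for it (adjusted p = 0.712, edgeR). In model 2 the gene had 26.3, 36.2, 26.1 and 44.0 CPM in preleukaemic mice and 29.9, 25.9 and 34.3 CPM in leukaemic mice. Both stages overlapped, with a log2 fold change of −0.14 ± 0.26 (SE, adjusted p = 0.799, edgeR), and the models differed by −1.04 ± 0.39 (SE), which was not called (adjusted p = 0.109, edgeR).

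ALDH1B1 is a second mitochondrial enzyme for acetaldehyde. Aldh1b1 (ENSMUSG00000035561, chromosome 4, 45799022 to 45804604, plus strand) was the lowest member in every group. Its counts were 0, 5 and 0 in the preleukaemic TgSpi1FA-/- mice. In the leukaemic mice they were 178, 83 and 149, or 4.88, 2.12 and 3.78 CPM. The preleukaemic TgSpi1FA+/+ mice had 2, 1, 0 and 34 counts. The leukaemic TgSpi1FA-/- libraries were thus above every other library, the nearest being preleukemic_633 of model 2 with 40 counts and preleukemic_138.

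Because the preleukaemic counts were near 0, the fitted log2 change of 6.05 ± 1.86 (SE) depends on the added prior count and is no bound. It was not called by edgeR (adjusted p = 0.0580) and was called by DESeq2 (adjusted p = 0.00215) and by edgeR with only both groups in the fit (0.0407). Against preleukaemic TgSpi1FA+/+ cells the adjusted p of Aldh1b1 was 0.133 with all libraries, 0.259 with the alike pair summed and 0.0187 without preleukemic_138 (edgeR). The second count table showed 213, 131 and 53 counts in the leukaemic TgSpi1FA-/- mice and 3, 5, 1 and 3 in the preleukaemic TgSpi1FA+/+ mice, and there the difference was called (adjusted p = 0.0138, edgeR). The leukaemic libraries of that table held 35497594 to 171572736 counts in total. Aldh1b1 was thus at 0.903 to 1.45 CPM in them, and at 0.0109 to 0.0412 CPM in the preleukaemic ones. In model 2 only preleukemic_633 exceeded 3 counts, and the other 6 libraries had 0, 0 and 3 counts in preleukaemic and 0, 0 and 3 counts in leukaemic mice, so leukaemic cells were at or under the floor of 3 counts per library. Against that floor the preleukaemic mean was at least 3.41-fold higher, through preleukemic_633 alone.

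ALDH1A1 is a cytosolic enzyme that makes retinoic acid from retinaldehyde and is used as a marker of blood stem cells. Aldh1a1 (ENSMUSG00000053279, chromosome 19, 20492715 to 20643465, plus strand) had 110, 133 and 50.8 CPM in preleukaemic TgSpi1FA-/- mice and 6.08, 17.2 and 20.1 CPM in the leukaemic TgSpi1FA-/- mice. The groups did not overlap. The log2 fold change was −2.76 ± 0.94 (SE), which edgeR did not call (adjusted p = 0.0785) and DESeq2 did (0.0119). In model 2 the preleukaemic mice had 27.5, 36.1, 14.5 and 88.3 CPM, and the leukaemic mice had 4.82, 2.18 and 6.90 CPM. Those groups did not overlap either, and the log2 fold change was −3.17 ± 0.72 (SE, adjusted p = 0.162 by edgeR and 5.07e-04 by DESeq2).

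The leukaemic changes of Aldh1a1 in both models differed by 0.38 ± 1.16 (log2, SE, adjusted p = 0.867, edgeR), an interval of 2 SE from −1.94 to 2.71 that leaves room for unequal changes. The gene is in the study's list of genes lowered in both models, which was drawn from these libraries, so its direction is not independent evidence. Preleukaemic TgSpi1FA+/+ cells were split, with 10.0 and 10.5 CPM in the nearly alike pair and 89.7 and 84.6 CPM in the other two. The pair lay at the level of leukaemic cells, and in the second table the pair had 33.6 and 26.6 CPM. The difference between the preleukaemic genotypes, 1.01 ± 0.81 (log2, SE, adjusted p = 0.774, edgeR), became 0.67 with the pair summed. The paralogue Aldh1a7, 13 exons on the other strand of the same chromosome at 20692953 to 20727562, had 8.86 to 105 CPM in preleukaemic and 0.575 to 1.17 CPM in leukaemic TgSpi1FA-/- libraries. Its log2 change of −5.65 ± 1.67 (SE) was not called by edgeR (adjusted p = 0.0522), and since both genes are close copies the split of reads between them is uncertain.

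**Figure D3:**
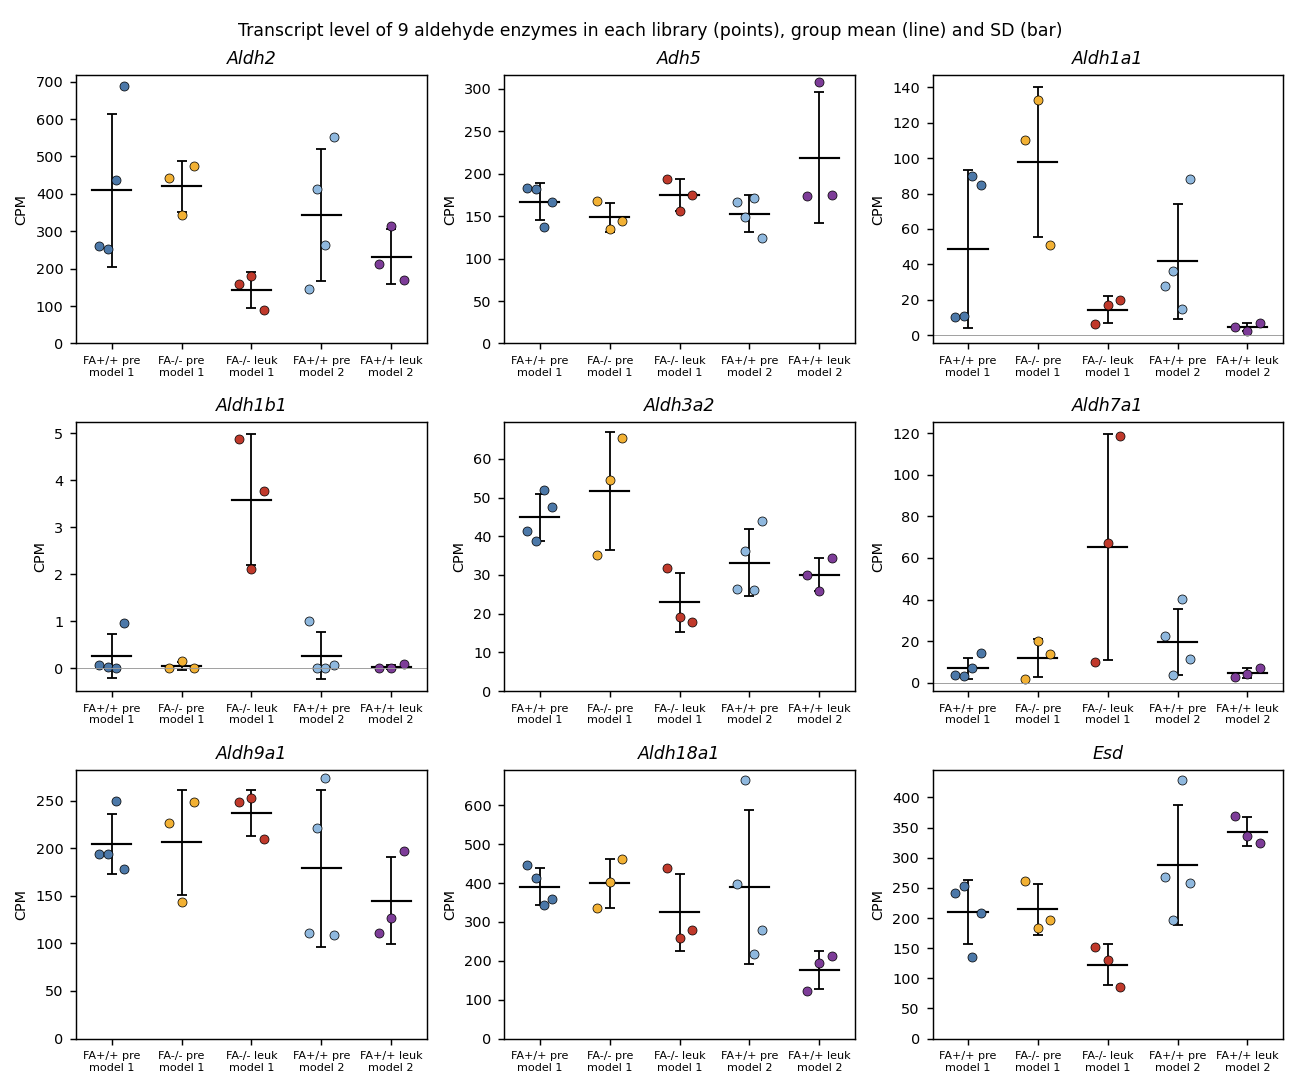
Each point is the level (CPM, linear axis) of 1 enzyme in 1 library, the long line the group mean and the bar its SD, for the 5 groups of 3 or 4 mice. Leukaemic TgSpi1FA-/- libraries lie below the preleukaemic ones of that genotype for Aldh2, Aldh1a1, Aldh3a2 and Esd and above them for Aldh1b1, and leukemic_606 stands at 308 CPM of Adh5.

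ALDH7A1 oxidises the semialdehyde of lysine breakdown as well as betaine aldehyde. Aldh7a1 (ENSMUSG00000053644, chromosome 18) varied widely among the mice of a group. It had 10.0, 67.0 and 119 CPM in the leukaemic TgSpi1FA-/- mice, an 11.9-fold range, and 1.87, 20.1 and 13.7 CPM in the preleukaemic mice, a 10.7-fold range. The groups overlapped through leukemic_26. The log2 fold change of 2.45 ± 1.03 (SE) was not called by edgeR (adjusted p = 0.135) and was called by DESeq2 (0.0390). In preleukemic_77 the genes within 10 Mb had a median of −0.88 from their model mean (log2), and those of chromosome 18 as a whole −0.84, while the deviation of Aldh7a1 was −2.41. The part of that in its level was not tested.

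In preleukaemic TgSpi1FA+/+ mice Aldh7a1 had 3.56, 3.30, 6.83 and 14.3 CPM. Leukaemic TgSpi1FA-/- cells stood 3.22 ± 0.95 above them (log2, SE, adjusted p = 0.0699, edgeR), and 2.996 with the alike pair summed (adjusted p = 0.163). In model 2 the fitted change had the opposite sign, with 22.5, 3.82, 40.3 and 11.2 CPM in preleukaemic mice and 2.57, 4.06 and 7.21 CPM in leukaemic mice. Those groups overlapped through preleukemic_663, and the log2 fold change was −2.08 ± 0.80 (SE, adjusted p = 0.213, edgeR). The models differed by 4.51 ± 1.40 (log2, SE), which edgeR did not call (adjusted p = 0.0677) and DESeq2 did (adjusted p = 0.00599). Without leukemic_26 edgeR called it as well (adjusted p = 0.0391). Aldh7a1 shares 300 bp of exon with Phax on the opposite strand, and the reads of such a pair cannot be told apart without strand.

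ALDH9A1, which oxidises the aldehydes of polyamine breakdown and of carnitine synthesis, was not called in any comparison. Aldh9a1 (ENSMUSG00000026687, chromosome 1) had 178 to 250 CPM in preleukaemic TgSpi1FA+/+ libraries and 227, 143 and 248 CPM in preleukaemic TgSpi1FA-/- mice. It had 249, 253 and 209 CPM in the leukaemic TgSpi1FA-/- mice, a log2 difference of 0.20 ± 0.21 (SE) from preleukaemic cells with an interval of 2 SE from −0.22 to 0.62. The low value of preleukemic_224 came with a median of −0.69 (log2) over the genes within 10 Mb. In model 2 the preleukaemic libraries split into 111 and 109 CPM (preleukemic_633 and preleukemic_837) and 222 and 274 CPM (preleukemic_663 and preleukemic_812), and the leukaemic mice had 110, 127 and 197 CPM.

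ALDH18A1 makes the glutamate semialdehyde from which proline and ornithine are built, so it produces an aldehyde and does not remove one. Aldh18a1 (ENSMUSG00000025007, chromosome 19, minus strand) had 335, 403 and 462 CPM in preleukaemic TgSpi1FA-/- mice and 439, 258 and 279 CPM in leukaemic TgSpi1FA-/- mice. The groups overlapped through leukemic_26, with a log2 fold change of −0.30 ± 0.22 (SE, adjusted p = 0.376, edgeR). With each library left out in turn the change ran from −0.57 to −0.13 and was not called (adjusted p of at least 0.0545, edgeR). In leukemic_26 the genes within 10 Mb had a median of 0.42 (log2), and Aldh18a1 stood 0.26 above its own mean. The part of that shift in its level was not tested. In model 2 it had 397, 665, 218 and 280 CPM in preleukaemic mice and 121, 195 and 213 CPM in the leukaemic mice. The leukaemic libraries lay below the preleukaemic ones, leukemic_921 only just under preleukemic_812, and the log2 fold change of −1.15 ± 0.41 (SE) was not called (adjusted p = 0.194, edgeR). The highest library, preleukemic_663, had a median of 0.67 (log2) over the genes within 10 Mb, and Aldh18a1 stood 1.35 above its own mean there.

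**Figure D4:**
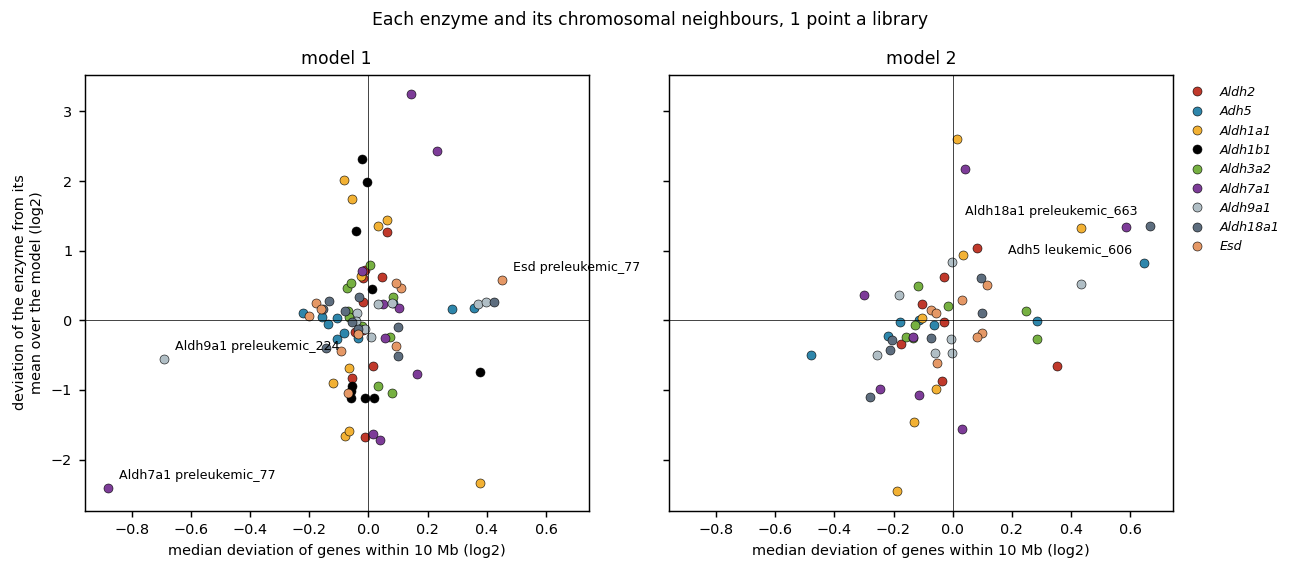
For each library and enzyme, the horizontal axis gives the median deviation (log2) of the other genes within 10 Mb from their mean over the model and the vertical axis the deviation of the enzyme itself. Most points lie near 0 on the horizontal axis, while Aldh7a1 in preleukemic_77 (−0.88), Aldh9a1 in preleukemic_224 (−0.69), Aldh18a1 in preleukemic_663 (0.67) and Adh5 in leukemic_606 (0.65) lie far from it with a deviation of the same sign.

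The genes whose pattern was most like that of an enzyme were listed for Aldh2, Adh5, Aldh1a1 and Esd by Pearson's r of log2 CPM over the 17 libraries, each model centred on its own mean, among 12090 genes. The libraries share their groups and depth, so r is a description. For Adh5 the list began with Lrrc40, Plrg1 and Ssr2 (r of 0.94, 0.93 and 0.91), all of chromosome 3, followed by the pseudogenes Gm14270 and Psma5-ps. Those for Aldh2 were Snx15, Ttc38, Ankrd12, Sirt2 and Shkbp1 (r of 0.86 to 0.89), those for Aldh1a1 were Jmjd1c, Lrch3, Tom1, Aldh1a7 and Ubr2 (0.90 to 0.91) and those for Esd were Ahsa1, Nipsnap3b, Nqo1, Arrdc1 and Fam76b (0.82 to 0.84). Among the members themselves, r ran from −0.79 for Adh5 with Aldh1a1 to 0.76 for Aldh2 with Aldh3a2.

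Other genes of aldehyde metabolism were taken from lists by function. Of 14 further ALDH genes 12 were in the tables and 6 could be tested in model 1, and among these 1, Aldh4a1, the mitochondrial enzyme that ends proline breakdown, was called in leukaemic against preleukaemic TgSpi1FA-/- cells, beside 13.3% of all genes. It fell by 1.25 ± 0.31 (log2, SE, adjusted p = 0.0325, edgeR), from 32.3 ± 9.32 to 13.6 ± 5.19 CPM (SD, n = 3 each). The list had a median log2 change of −1.05 there and of −0.59 in model 2, where 6 were tested and 0 called, as were 0 of all 12970 genes. None of the other class ADH genes reached the filter, 4 of the 5 being in the tables, with Adh1 at no more than 0.129 CPM in any TgSpi1FA-/- library.

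Glutathione carries formaldehyde to ADH5. Of 6 genes of its supply 2 were called in leukaemic against preleukaemic TgSpi1FA-/- cells, beside 13.3% of all genes, and these were both subunits of the enzyme that makes its precursor, which fell. Gclc, the catalytic subunit, had 209 ± 57.0 CPM in preleukaemic and 83.9 ± 9.02 CPM in leukaemic cells (SD, n = 3 each), a log2 change of −1.32 ± 0.22 (SE, adjusted p = 0.0104, edgeR). Gclm, the modifier subunit, had 482 ± 95.9 and 207 ± 34.0 CPM (SD, n = 3 each), a change of −1.22 ± 0.27 (SE, adjusted p = 0.0230, edgeR). The other 4 were not called, and the median of the 6 was 0.14. In model 2 Gclc and Gclm changed by −0.36 ± 0.28 and −0.33 ± 0.26 (log2, SE) and were not called, as no gene was in model 2, nor was the difference between the models (adjusted p of 0.113 and 0.157, edgeR).

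Of 22 genes of carbonyl reduction, glutathione conjugation and the glyoxalase pathway 18 were tested in model 1, with a median change of 0.00. The single call of 18, beside 13.3% of all genes, was Gstm1, a glutathione transferase, with 0.0647 to 0.146 CPM in preleukaemic and 5.49 to 8.14 CPM in leukaemic TgSpi1FA-/- libraries (adjusted p = 0.0106, edgeR). Its preleukaemic level was near 0, so the fitted log2 change of 5.80 depends on the added prior count. Against preleukaemic TgSpi1FA+/+ cells the change was 3.06 ± 0.74 (log2, SE, adjusted p = 0.0412, edgeR). In model 2 its libraries overlapped, at 0.124 to 5.85 CPM in preleukaemic and 0.103 to 0.795 CPM in leukaemic cells, and the difference between the models was called (adjusted p = 0.0350, edgeR), as it was for 4.61% of all genes. The Gstm genes are close copies of one another, so reads of this gene may have been split.

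Folate carries formaldehyde units too. Of 12 one-carbon genes 11 were tested, and 3 were called in leukaemic against preleukaemic TgSpi1FA-/- cells, beside 13.3% of all genes. Mthfd1, the cytosolic folate enzyme, fell by 1.48 ± 0.27 (log2, SE, adjusted p = 0.0140, edgeR) from 876 to 1145 CPM in preleukaemic to 243 to 462 CPM in leukaemic libraries. Slc25a32, the mitochondrial folate carrier, fell by 0.72 ± 0.19 (SE, adjusted p = 0.0400, edgeR). Shmt1, the cytosolic serine hydroxymethyltransferase, rose by 1.39 ± 0.28 (SE, adjusted p = 0.0188, edgeR), from 61.4 ± 25.8 to 160 ± 25.6 CPM (SD, n = 3 each). In model 2 none of the 11 was called, where edgeR called 0 of 12970 genes. The difference between the models was called for Mthfd1l, the mitochondrial relative of Mthfd1, at 1.48 ± 0.36 (log2, SE, adjusted p = 0.0390, edgeR).

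Around ALDH18A1, 5 genes of proline metabolism were tested and 2 were called in leukaemic against preleukaemic TgSpi1FA-/- cells, beside 13.3% of all genes. Prodh, which starts proline breakdown and feeds ALDH4A1, had 0.0970 to 0.821 CPM in preleukaemic and 9.95 to 15.3 CPM in leukaemic TgSpi1FA-/- libraries and rose by 4.89 (log2, adjusted p = 0.0309, edgeR), and its change differed from that of model 2 by 6.46 ± 1.59 (SE, adjusted p = 0.0395, edgeR). Oat, ornithine aminotransferase, fell by 0.92 ± 0.20 (log2, SE, adjusted p = 0.0206, edgeR). Of 9 genes of aldehyde-making oxidases and carnitine synthesis 6 were in the tables and 5 tested, with 2 called. Besides Shmt1, Sat1, the polyamine acetyltransferase, was called and fell by 1.04 ± 0.22 (log2, SE, adjusted p = 0.0213, edgeR). Its change differed between the models by −1.61 ± 0.38 (SE, adjusted p = 0.0369, edgeR). Smox, spermine oxidase, had 0.388 to 18.3 CPM in preleukaemic and 17.5 to 29.3 CPM in leukaemic TgSpi1FA-/- libraries, and 2.37 to 29.8 CPM and 0.114 to 0.355 CPM in preleukaemic and leukaemic libraries of model 2. It was called in neither step by edgeR, and the difference between the models was called at 7.26 ± 1.77 (log2, SE, adjusted p = 0.0390, edgeR). Between preleukaemic TgSpi1FA-/- and TgSpi1FA+/+ cells no gene of these lists was called, beside 0.00747% of all genes.

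The calls on the listed genes were also repeated with each library left out, an alternative chosen after the data were seen. Without leukemic_39, the library with little Spi1, 3 of the 10 genes called in leukaemic against preleukaemic TgSpi1FA-/- cells were still called by edgeR, namely Gclc (adjusted p = 0.0389), Gstm1 (0.0274) and Mthfd1 (0.0365). The other 7 (Aldh4a1, Gclm, Oat, Prodh, Sat1, Shmt1 and Slc25a32) then had adjusted p-values of up to 0.110. In that comparison Gclc and Gstm1 were called whichever library was left out, Mthfd1 not without preleukemic_224 or leukemic_28, and Slc25a32 not without any single one of the 6. Against preleukaemic TgSpi1FA+/+ cells 5 list genes were called (Gstm1, Gclc, Gclm, Prodh and Oat), beside 7.01% of all genes. That was 1 of 18 tested in the list of Gstm1, 2 of 6 in glutathione supply and 2 of 5 in proline metabolism. None was called in the other lists. Of these 5 genes 0 were called without leukemic_39 (adjusted p of 0.0608 to 0.146, edgeR). Differences between the models were called for 5 list genes, beside 4.61% of all genes. Each of these 5 differences was lost without leukemic_39 (adjusted p of 0.0678 to 0.0864, edgeR).

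**Figure D5:**
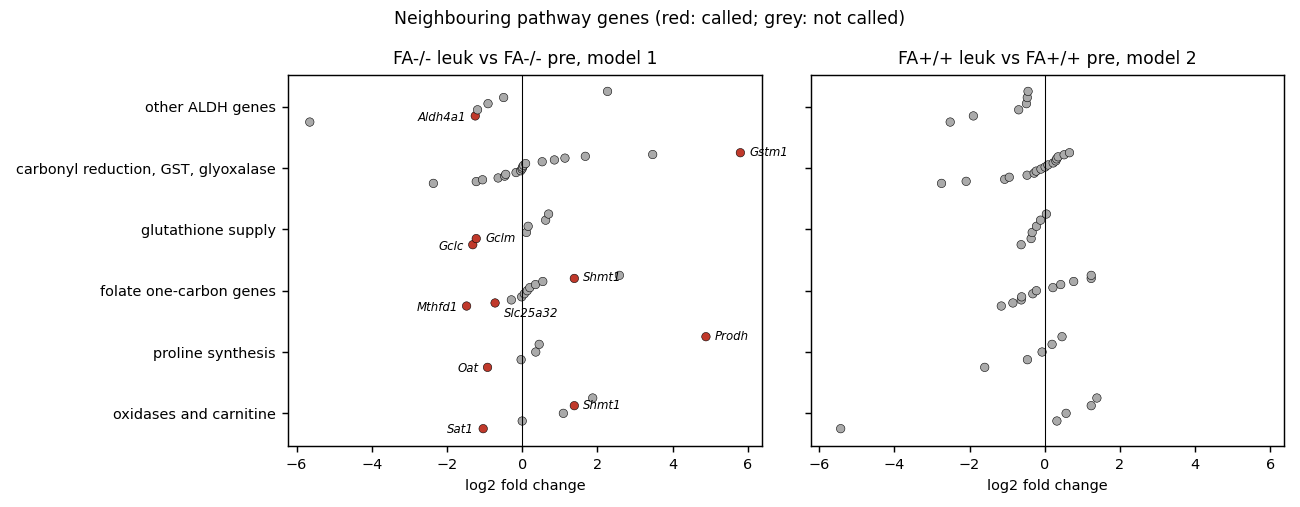
Each point is the log2 fold change of 1 tested gene of 6 functional lists, in leukaemic against preleukaemic cells of TgSpi1FA-/- mice of model 1 (left) and TgSpi1FA+/+ mice of model 2 (right), with called genes in red and named. Red points, from Mthfd1 at −1.48 to Gstm1 at 5.80, are seen in model 1, where 13.3% of all genes were called, and every point of model 2 is grey, where edgeR called 0 of 12970 genes.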

How the data were processed

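RNA-seq of 17 cultures of erythroid blasts, 1 per mouse, was analysed from the deposited tables of whole-number counts per gene. The authors prepared stranded polyA libraries and, per the submitters' processing notes, used bcl2fastq 2.17.1.14, STAR 2.5.3a and HTSeq 0.6.1p1 on mm10. The annotation release and the strand setting of the counting are not given in the sources used here. Of the gene identifiers, 99.8% (model 1) and 99.9% (model 2) were found in GENCODE M21, which gave positions and lengths. Columns of the authors' own comparisons were not used.

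Counts were tested per model with edgeR 4.0.16 (R 4.3.3; TMM, filterByExpr, quasi-likelihood F test, all groups of the model in 1 fit, no covariate), with Benjamini-Hochberg adjustment over all tested genes, and the difference between the models in 1 fit over 17 libraries. Fitted log2 values hold the prior count of edgeR. Single genes were also given exact two-sided permutation tests of log2(CPM + 0.05) with scipy 1.17.1. Alternatives were DESeq2 1.42.0, its size factors, all genes unfiltered, genes with 1 CPM or more in at least 3 libraries, the compared groups alone, each library left out, preleukemic_445 and preleukemic_479 summed, and the second count table, and, chosen after the data were seen, each library left out for the called list genes. The scripts were tested on simulated data. Total counts of 29964576 to 40514205 per library limit precision for genes near the floor of 3 counts per library only, and the number of mice limits the rest. Labels do not say whether the mice were littermates, so p-values measure the spread between these samples.

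The members and lists were chosen with earlier results of these data known. Named were all 9 members, list genes called in a comparison, and for Aldh2, Adh5, Aldh1a1 and Esd the 5 most similar genes. Spi1, Fanca, Aldh1a7, Adh1 and the marker genes serve as checks.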

Additional observations from a re-analysis of the deposited data

Results flagged for a closer look

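In the preleukaemic TgSpi1FA+/+ libraries of model 1, the Aldh1b1 level of preleukemic_138, 0.965 CPM, lay far above the other 3 of its group (0 to 0.0624 CPM). In the preleukaemic libraries of model 2 the same gene had 1.01 CPM in preleukemic_633 and at most 0.0742 CPM in the other 3. Both gaps passed Dixon's 95% critical value for 4 samples, which chance passes in about 1 of 20 groups. Both are also of the member with the lowest level, and rest on 34 and 40 counts.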

How the results depend on the processing

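No paired analysis was possible because the mouse numbers are unique to each group. Of the values of single enzymes under the alternatives other than leaving out a library, 252 kept direction and side of the threshold, 11 newly passed it, 6 no longer passed and 4 reversed. With libraries left out the numbers were 308, 7, 16 and 22. The cause of these changes was not tested.

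The counts of all genes called moved most. DESeq2 gave 3099 genes and 5 members for leukaemic against preleukaemic TgSpi1FA-/- cells (edgeR 1782 and 2), 256 genes between the preleukaemic genotypes (1), 2245 genes and 3 members for leukaemic TgSpi1FA-/- against preleukaemic TgSpi1FA+/+ cells (939 and 1), 470 genes and 1 member in model 2 (0 and 0) and 2037 genes and 2 members for the difference between the models (673 and 0). Without a filter 4 genes were called between the preleukaemic genotypes and 279 for the difference between the models. For leukaemic TgSpi1FA-/- against preleukaemic TgSpi1FA+/+ cells, 122 genes were called with the alike pair summed and 267 in the second count table, and 0 members with DESeq2's size factors, the 1 CPM filter, the compared groups alone or the pair summed.

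Leaving out each library gave 414 to 2319 genes and 0 to 1 members for leukaemic against preleukaemic TgSpi1FA-/- cells, lowest without leukemic_28 and highest without leukemic_26. It gave 1 to 16 genes between the preleukaemic genotypes, 53 to 1911 genes and 0 to 3 members for leukaemic TgSpi1FA-/- against preleukaemic TgSpi1FA+/+ cells, 0 to 1 genes in model 2, and 1 to 1359 genes and 0 to 2 members for the difference between the models.

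Small changes turned sign. Between the preleukaemic genotypes Aldh2 was at −0.14 with the pair summed, and Aldh9a1 at −0.0018 by DESeq2, −0.0021 with its size factors and −0.010 with the pair summed. With libraries left out the log2 change there ran from −0.14 to 0.41 for Aldh2, −6.20 to 0.62 for Aldh1b1, −0.0014 to 0.41 for Aldh3a2, −0.14 to 0.21 for Aldh9a1, −0.083 to 0.14 for Aldh18a1 and −0.14 to 0.13 for Esd. It ran from −0.018 to 0.16 for Adh5 in leukaemic TgSpi1FA-/- against preleukaemic TgSpi1FA+/+ cells, in model 2 from −0.24 to 0.027 for Aldh3a2 and −0.59 to 0.0062 for Aldh9a1, and for the difference between the models from −0.46 to 0.034 for Adh5 and −0.32 to 0.80 for Aldh1a1.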

Other observations

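Aldh1a1 in leukemic_26 deviated by −2.33 from its mean over model 1 (log2) while the genes within 10 Mb had a median 0.38 above theirs, and Aldh2 in leukemic_921 deviated by −0.66 from its mean over model 2 with a neighbour median of 0.35. In both libraries the enzyme thus deviated against its neighbours.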
